A study of Rattus norvegicus with 6 samples.

Results

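The genes described here are the transcription factor Nrf2 (gene Nfe2l2), its cytoplasmic inhibitor Keap1, and 8 target genes on the haem, quinone, NADPH and thioredoxin sides of the antioxidant response: Hmox1, Blvrb, Nqo1, Me1, Txn1, Txnrd1, Srxn1 and Prdx1. They were taken by gene symbol, as every probe set whose only symbol in the platform annotation was one of these names. A probe set is a group of short probes on the array that together read one transcript. This gave 14 probe sets for 9 of the 10 genes, among 14217 genes with a probe set of 1 symbol. The only probe set annotated to Prdx1, a peroxiredoxin that reduces hydrogen peroxide, also carries the symbol Prdx1l1, so Prdx1 has no value here.

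RNA came from primary astrocytes of rat spinal cord, grown to confluent monolayers and kept for 24 hours in supplemented L15 medium. Each sample, 5 ug of total RNA, was read on an Affymetrix rat genome array. The 3 samples of the group NonTG were nontransgenic. The 3 of the group hSOD1G93A came from rats transgenic for a mutant human SOD1, the superoxide dismutase that is altered in some inherited forms of amyotrophic lateral sclerosis, with no other treatment in either group. The replicates of each group carry the letters A, B and C. The promoter of the transgene, the age of the animals and the number of animals behind a sample are not given in the sources used here. Whether the replicates were separate cultures or animals is not stated in the labels, so a p-value here reflects sample-to-sample spread alone, possibly a technical one.

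Nrf2 is a basic leucine zipper factor that drives genes carrying antioxidant response elements, short promoter sequences it binds together with a small Maf protein. In unstressed cells Keap1 holds Nrf2 for ubiquitination and breakdown, and oxidants or electrophiles that modify cysteines of Keap1 release it. The control is therefore mainly on the Nrf2 protein, and the transcripts of its targets serve as the usual readout of the pathway. Astrocytes are the brain and spinal cord cells in which this response is best known, through the glutathione and thioredoxin they maintain.

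The 250 bases before the annotated transcription start were searched for the core of the antioxidant response element, TGACNNNGC, and for the related motif TGACTCA, on both strands. The last bases of TGACTCA can fill the N positions of the former, so one site can match both. RefSeq promoters of assembly GRCr8 were matched for 9 of the 10 genes, all but Hmox1, with 2 entries for Txnrd1. The response element core was found for Me1, for 1 entry of Txnrd1 and for Prdx1. TGACTCA was found for Me1, Srxn1 and Prdx1. Sequence farther from the start was not searched, so the lack of a match does not show that a gene lacks such an element. Among 33469 promoter entries of all genes, 10.1% held the first motif and 4.05% the second. The 3 stretches below belong to the genes whose signals are given, with the match in capitals, written along the gene's strand; a match is a description of these letters only. The Me1 stretch lies at chr8:96540383-96540431 on the minus strand, with the match from base -167 to base -159 relative to the start. That of Txnrd1 lies at chr7:22755954-22756002 on the minus strand, with the match to the opposite strand from -78 to -70. That of Srxn1 lies at chr3:161064730-161064776 on the plus strand, with the match, again to the opposite strand, from -62 to -56.
Me1: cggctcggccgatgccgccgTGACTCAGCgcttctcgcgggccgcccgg
Txnrd1: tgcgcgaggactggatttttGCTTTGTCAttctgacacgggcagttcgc
Srxn1: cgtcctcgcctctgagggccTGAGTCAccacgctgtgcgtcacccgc

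Values are the authors' MAS5 signals on a linear scale, and differences are hSOD1G93A minus NonTG on the log2 scale, with 3 arrays in each group. The median signal of an array ranged from 129 to 136. All 8 measured astrocyte markers lay above the filter on dim probe sets, a mean signal of 66.7, and their summed signal was 92490 to 104300 in NonTG and 87130 to 103600 in hSOD1G93A. Of 9 microglial markers, 2 lay above it, with sums of 339 to 509 and 357 to 532. Fibroblast and meningeal markers, 7 of 7 above the filter, summed to between 60210 and 61250 in NonTG and to 61710, 44630 and 55820 on the arrays A, B and C of hSOD1G93A. Oligodendrocyte lineage markers, 6 of 9 above it, summed to 5583, 5867 and 5237 on the NonTG arrays and to 6116, 7684 and 5747 on the hSOD1G93A arrays, higher in the latter within each letter. Neuronal markers (5 of 7) summed to 2610.0 to 3716 and 2951 to 3405, and endothelial ones (2 of 4) to 184 to 341 and 215 to 430.4. The probe set of the rat Sod1 gene read 8855 to 9430 in NonTG and 9781 to 10860.3 in hSOD1G93A; whether it detects the human transcript was not tested, so it does not check the transgene. In such bulk RNA, fewer cells of a type and less RNA per cell cannot be told apart.

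None of the measured genes of the Nrf2 pathway in this set passed the test between hSOD1G93A and NonTG cultures. Of the 9 genes, each read by its brightest probe set, 3 had a higher mean in hSOD1G93A (Blvrb, Txnrd1 and Me1) and 6 a lower one (Txn1, Srxn1, Nfe2l2, Nqo1, Keap1 and Hmox1). Their differences ran from -0.11 to 0.23 with a median of -0.042, against a median of 0.0070 over all probe sets tested. In absolute size the median was 0.076, against 0.10 over all. These sizes are not matched for brightness: the median standard error was 0.13 for the tested probe sets of these genes and 0.16 over all.

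The comparison used limma, a linear model fitted across all probe sets at once, with Benjamini-Hochberg adjustment over the 18625 probe sets that passed the filter. Of the 14 probe sets 13 passed it. Limma called 0 of the 13 at an adjusted p of 0.05, where 0% of all tested probe sets were called, and the adjusted p was 0.9997 for every one of them. At an unadjusted p of 0.05 it was 0 of 13, against 2.54% of all. The 2 groups overlapped for all 13, while 7.51% of all tested probe sets had no overlap. With the letter as a block, limma's smallest adjusted p among the 13 was 0.842. The standard errors and intervals given for each gene come from the fit without the block, and the block changed them.

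The 95% intervals state how large a difference these arrays leave possible. For 11 of the 13 probe sets the interval stayed within 1.5-fold in both directions, as it did for 63.6% of all tested probe sets and for 89.6% of the 10601 that were at least as bright as the dimmest of the 13. The remaining intervals, of Hmox1 and of one Srxn1 probe set, reached down to 1.53-fold and 1.52-fold lower. A p that misses the threshold does not show that the groups were alike within these limits.

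**Figure D1:**
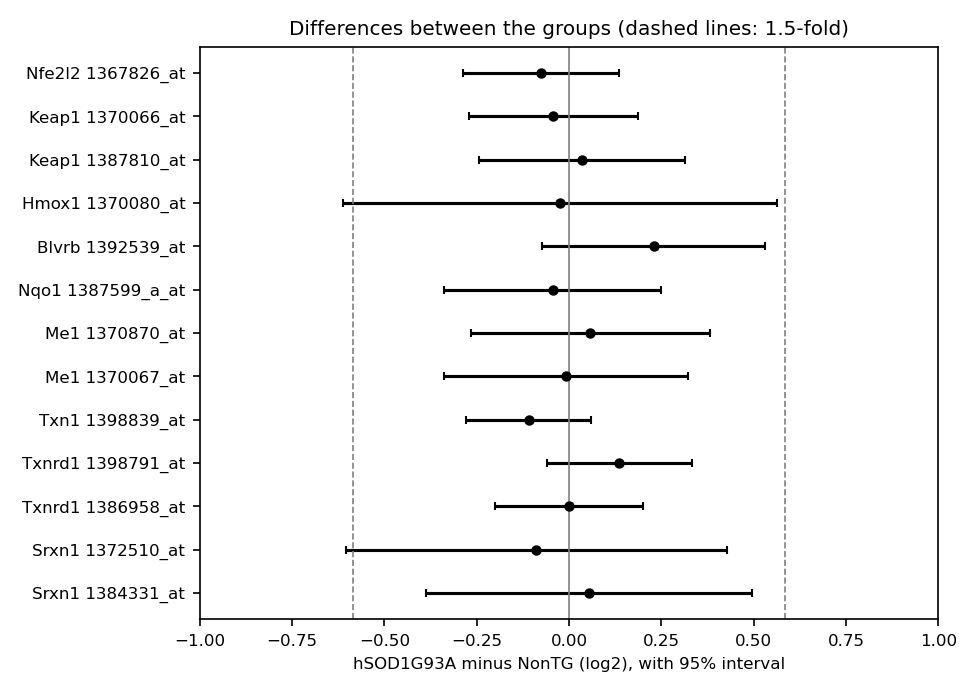
Difference between hSOD1G93A and NonTG (log2, horizontal axis) for the 13 tested probe sets, with points for the limma estimate and bars for its 95% interval from 3 arrays per group. All bars cross 0, and those of Hmox1 and Srxn1 1372510_at reach past the dashed line of 1.5-fold lower.

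The regulators come first. Nfe2l2 (1367826_at), the factor itself, had signals of 3059.9, 3655 and 3737 on the NonTG arrays A, B and C and of 3215, 3209 and 3460.4 on the hSOD1G93A arrays. The lowest of the 6 was NonTG A, and the 3 hSOD1G93A values lay inside the NonTG range. The difference was -0.076 (SE 0.094, n = 3 per group, 95% interval -0.29 to 0.14; adjusted p = 0.9997 in limma). These values concern the transcript, on which the known control by Keap1 does not act.

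Keap1, the substrate adaptor that links Nrf2 to a ubiquitin ligase, was read by 2 probe sets. On 1370066_at the signals were 681, 658 and 691 in NonTG and 622, 679 and 672 in hSOD1G93A. The highest and the lowest of the 6 differed by 1.11-fold, the smallest span of the 13 probe sets. Its difference was -0.042 (SE 0.10, 95% interval -0.27 to 0.19). The other, 1387810_at, read 392, 404 and 385 in NonTG and 413, 369 and 431 in hSOD1G93A, a difference of 0.035 (SE 0.12). The probe sets differed in sign by amounts inside their errors, the groups overlapped on both, and over the 6 arrays they did not follow each other (Pearson r = -0.48).

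On the haem side, Hmox1 encodes the inducible haem oxygenase, which opens haem to biliverdin, iron and carbon monoxide. Its signals (1370080_at) were 455, 348 and 542 in NonTG and 622.5, 298 and 440 in hSOD1G93A. Both the highest and the lowest of the 6 arrays were hSOD1G93A arrays, so that group enclosed the other. The difference was -0.025 (SE 0.26, 95% interval -0.61 to 0.56). Hmox1 had the widest spread of the set: hSOD1G93A arrays differed by up to 2.09-fold and NonTG arrays by up to 1.56-fold. Its pooled standard deviation within groups, 0.44, stood at the 89.9th percentile of all tested probe sets.

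Blvrb, biliverdin reductase B, reduces flavins and the beta isomer of biliverdin, while the alpha isomer that Hmox1 makes is reduced by Blvra. Its signals (1392539_at) were 659, 633 and 761 in NonTG and 944, 734 and 739 in hSOD1G93A. It had the largest difference of the 9 genes, 0.23 or 1.17-fold higher (SE 0.13, 95% interval -0.072 to 0.53; unadjusted p = 0.12 and adjusted p = 0.9997 in limma). The NonTG C array lay above 2 of the 3 hSOD1G93A arrays, so the groups overlapped. Without the hSOD1G93A A array, the highest of the 6, the difference was 0.11.

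Nqo1 encodes a quinone reductase that uses NADPH or NADH and is a standard marker of Nrf2 activity. Its signals (1387599_a_at) were 4722, 5455 and 6772 in NonTG and 5616, 4841 and 5853 in hSOD1G93A. NonTG held both the lowest and the highest array, and the difference was -0.044 (SE 0.13, 95% interval -0.34 to 0.25).

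Me1, the cytosolic malic enzyme, makes NADPH from malate. On 1370870_at it read 2415, 1938 and 2639 in NonTG and 2593, 1999.96 and 2683 in hSOD1G93A, a difference of 0.058 (SE 0.14, 95% interval -0.27 to 0.38). On 1370067_at it read 2276, 1788 and 2677 in NonTG and 2346, 1941 and 2351 in hSOD1G93A, a difference of -0.0085 (SE 0.15). In both groups and on both probe sets the B array was the lowest. The Me1 probe sets followed each other over the arrays (Pearson r = 0.94, n = 6 arrays, which share the letters and the array scaling), and both gave the same order of the letters within NonTG.

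**Figure D2:**
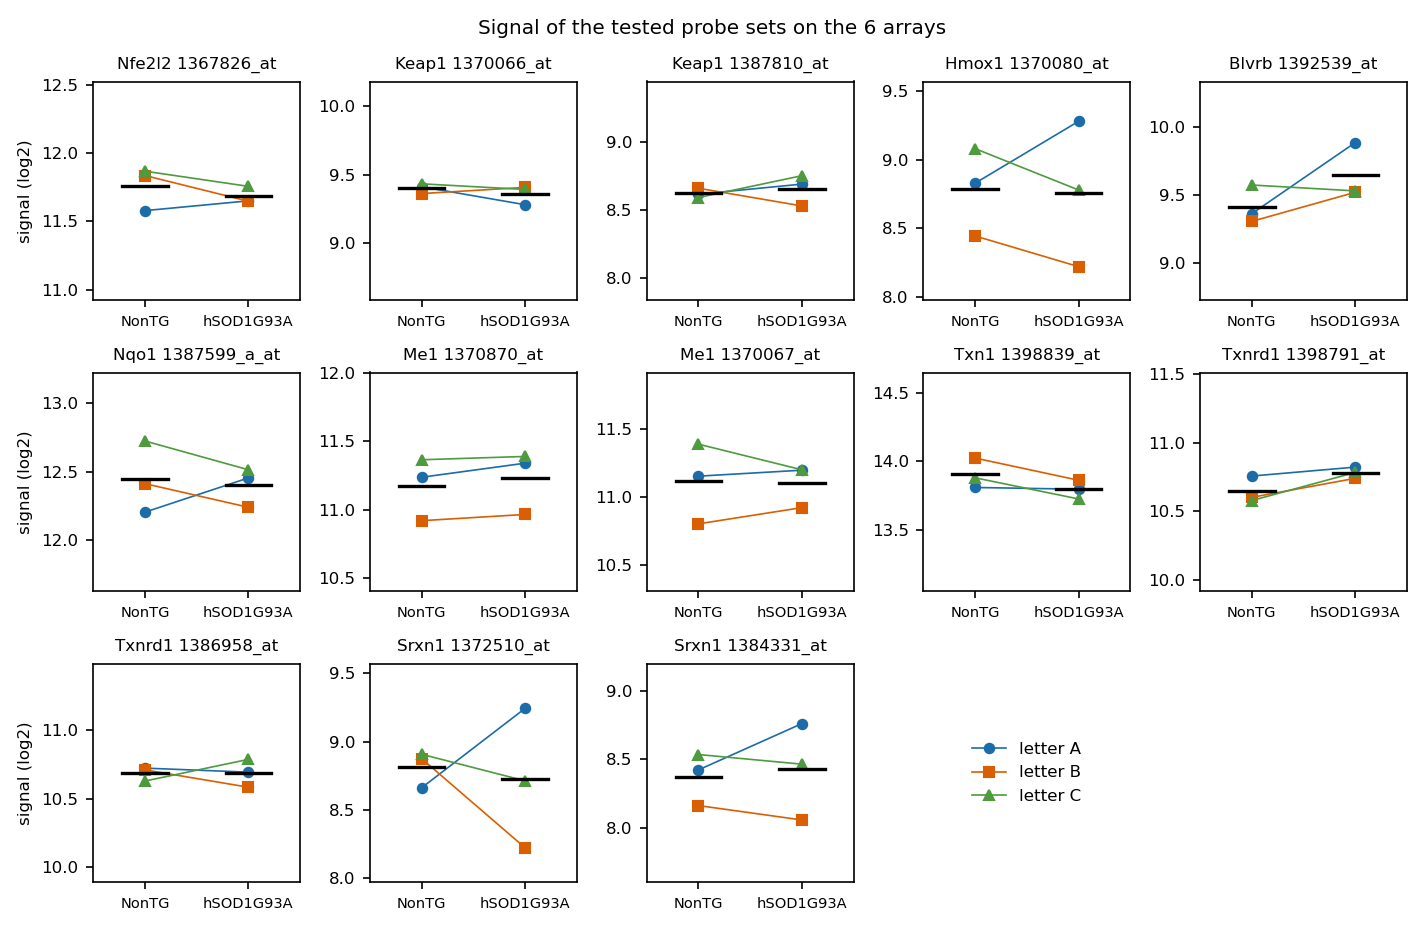
Log2 signal (vertical axis, spanning the same width in each panel) of the 13 tested probe sets on the NonTG and hSOD1G93A arrays, with a line joining the arrays of the same letter and a black bar for each group's mean. The groups overlap in every panel, Hmox1 and Srxn1 1372510_at have the widest scatter, and letter B is the lowest in both groups for Hmox1, Blvrb, both Me1 panels and Srxn1 1384331_at.

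On the thioredoxin side, Txn1 encodes the small cytosolic protein that reduces disulfides in other proteins. Its signals (1398839_at) were 14346, 16650.4 and 15064 in NonTG and 14220.4, 14882 and 13537 in hSOD1G93A. The difference was -0.11, or 1.08-fold lower (SE 0.075, 95% interval -0.28 to 0.060; unadjusted p = 0.18 in limma). hSOD1G93A B lay above NonTG A, which made the groups overlap. Txn1 had the smallest standard error of the 13, and an increase of more than 1.04-fold lay outside its interval. After quantile normalization the difference was -0.038, and without NonTG B it was -0.050.

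Txnrd1, thioredoxin reductase 1, uses NADPH to return thioredoxin to its reduced form. Its first probe set (1398791_at) read 1731, 1554 and 1529 in NonTG and 1811, 1711 and 1762 in hSOD1G93A. The difference was 0.14, or 1.10-fold higher (SE 0.087, 95% interval -0.060 to 0.33; unadjusted p = 0.15 in limma), with NonTG A above hSOD1G93A B. The second probe set (1386958_at) did not show it. It read 1691, 1677 and 1584 in NonTG and 1657, 1535 and 1768 in hSOD1G93A, a difference of 0.00070 (SE 0.089), and the mean over both was 0.069.

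Srxn1, sulfiredoxin, repairs peroxiredoxins whose active cysteine has been overoxidized. On 1372510_at it read 405, 469 and 480.0 in NonTG and 606, 299 and 420 in hSOD1G93A, so that the hSOD1G93A arrays A and B were the highest and lowest of the 6. The difference was -0.088 (SE 0.23, 95% interval -0.61 to 0.43). On 1384331_at it read 343, 286 and 371 in NonTG and 433, 266 and 353 in hSOD1G93A, a difference of 0.054 (SE 0.20). Both probe sets gave the same extremes, hSOD1G93A A and B, and followed each other over the arrays (Pearson r = 0.80, n = 6 arrays). The hSOD1G93A arrays spanned 2.03-fold on the first against 1.18-fold for NonTG, and 1.63-fold against 1.30-fold on the second.

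A further Srxn1 probe set (1381067_at) was too dim to test. It read 8.67, 57.7 and 36.2 in NonTG and 2.74, 16.5 and 6.31 in hSOD1G93A, all below the filter of 66.7. It was lower in hSOD1G93A within each letter, but the groups overlapped, and at such signals the size of a log2 difference is uncertain. The 2 brighter probe sets of the gene did not show it.

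Arrays of one letter tended to deviate together over all tested probe sets, with correlations of 0.30, 0.25 and 0.20 for A, B and C. For 11 of the 13 probe sets the range of the 3 letter means exceeded the difference between the groups, as it did for 83.4% of all tested probe sets. The exceptions were Blvrb and Txnrd1 1398791_at. Such a range tends to exceed such a difference even where the letters play no part, so this count does not show a letter effect. In a test of the letters with the group in the model, limma called 0 of the 13 at an adjusted p of 0.05, against 1.05% of all tested probe sets. The smallest was that of Me1 1370870_at (adjusted p = 0.079 and unadjusted p = 0.0015 in limma), whose letter means were 11.29 for A, 10.94 for B and 11.38 for C. Hmox1 had the widest range of letter means, at 9.06, 8.33 and 8.93 (adjusted p = 0.18 in limma). Unadjusted, 4 of the 13 lay below 0.05, namely both Me1 probe sets, Hmox1 and Nqo1, as did 15.6% of all tested probe sets.

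Comparing only arrays of the same letter gave opposite signs for several genes. Hmox1 differed by 0.45 within A, -0.22 within B and -0.30 within C, and Srxn1 (1372510_at) by 0.58, -0.65 and -0.19. Nqo1 differed by 0.25, -0.17 and -0.21 and Nfe2l2 by 0.071, -0.19 and -0.11. The second Srxn1 probe set followed with 0.34, -0.10 and -0.070. This order, higher within A and lower within B and C, was thus seen on 5 of 13 probe sets (38.5%), and on 15.4% of all tested probe sets. It was singled out after the values were seen and is given as a description.

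Over the 9 genes, 7 were higher within A with a median of 0.10, 4 within B with a median of -0.16 and 2 within C with a median of -0.11. Of all tested probe sets 50%, 51.3% and 51.6% were higher. Only Txnrd1 1398791_at (0.065, 0.14 and 0.21) and Me1 1370870_at (0.10, 0.046 and 0.024) were higher within all 3 letters, and only Txn1 was lower within all 3 (-0.013, -0.16 and -0.15). Of all tested probe sets 13.5% were higher and 12.2% lower within all 3, so these counts of 2 and 1 of 13 do not stand out. On hSOD1G93A B the summed fibroblast and meningeal markers were at their lowest, 44630, and the oligodendrocyte lineage markers at their highest, 7684; their part in these differences was not tested.

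**Figure D3:**
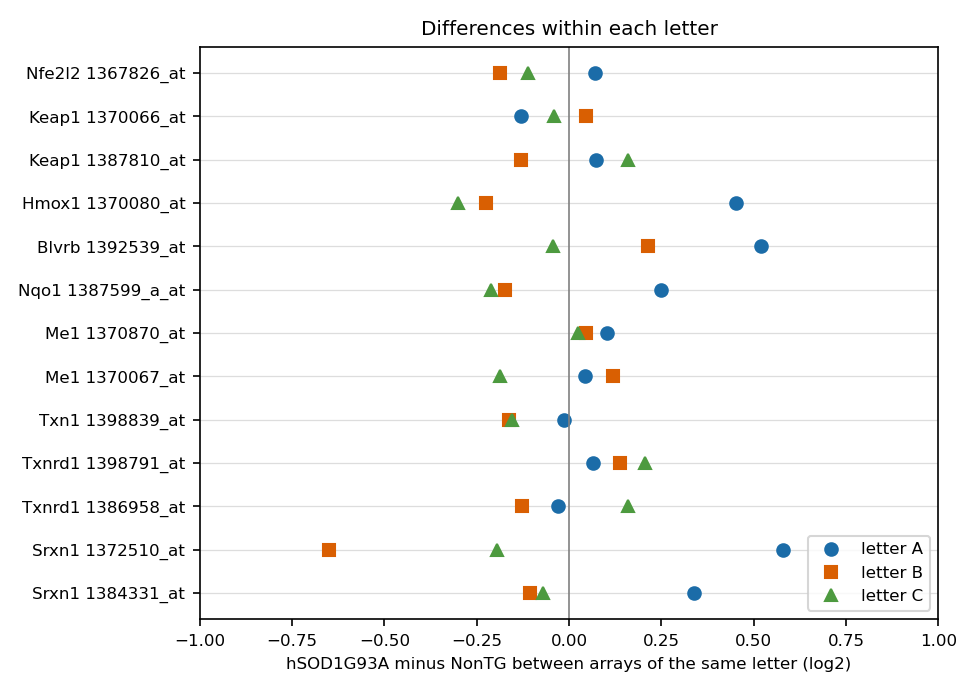
Difference between the hSOD1G93A and the NonTG array of the same letter (log2, horizontal axis) for each of the 13 tested probe sets, 1 symbol per letter. For Hmox1, Nqo1, Nfe2l2 and both Srxn1 probe sets, A lies to the right of 0 and B and C to the left.

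Other genes of the pathway and general stress genes were read through 6 lists of 87 genes, of which 81 had a probe set and 76 passed the filter. Limma called 0 of the 76 at an adjusted p of 0.05, and 2 had an unadjusted p below 0.05, Slc7a11 and Fech, a share near the 2.54% of all tested probe sets. Of the 76 genes 37 were higher and 39 lower in hSOD1G93A, with a median difference of -0.0022. The groups did not overlap for 4 of them (5.26%, against 7.51% of all tested probe sets). Limma's adjusted p was 0.9997 for all 76.

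Among the partners and regulators of Nrf2, 5 of 12 tested genes were higher and 7 lower, with differences between -0.18 and 0.11. Crebbp, a coactivator with histone acetyltransferase activity, differed by 0.11 (SE 0.11) and Rbx1, a subunit of the ligase that acts with Keap1, by -0.053 (SE 0.070). Mafk, a small Maf partner of Nrf2, differed by -0.18 (SE 0.22). Its within-letter values of 0.34, -0.54 and -0.32 had the same signs as those of Srxn1 and Hmox1.

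In the thioredoxin system beside the 3 genes above, 10 of 19 were higher and 9 lower, none by more than 0.16. Txndc17, a thioredoxin-like protein, differed by -0.16 (SE 0.099), Msrb1, a methionine sulfoxide reductase, by -0.12 (SE 0.11) and Sesn1, a sestrin, by 0.14 (SE 0.14). Of the genes for haem, biliverdin and iron 3 of 8 were higher. Fech, which inserts iron to complete haem, had signals of 1818, 1558 and 1139 in NonTG and 794, 1295 and 1115 in hSOD1G93A, a difference of -0.50 (SE 0.21) set mostly by letter A (-1.20, against -0.27 and -0.031). Hmox2, the constitutive haem oxygenase, was at 0.24 (SE 0.12) with a higher value within all 3 letters, and Slc48a1, a haem transporter, at 0.14 (SE 0.095).

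Of the genes that supply NADPH 7 of 9 were higher, with a median of 0.038. Hk1, a hexokinase, differed by 0.17 (SE 0.098), Me2, the mitochondrial malic enzyme, by 0.20 (SE 0.14) and Idh2, a mitochondrial isocitrate dehydrogenase, by 0.18 (SE 0.14). On the glutathione side and in drug metabolism 10 of 19 were higher. Slc7a11, the cystine transporter and itself an Nrf2 target, read 339, 438 and 350 in NonTG and 441, 629 and 518 in hSOD1G93A, a difference of 0.49 (SE 0.17) with the groups apart. Gstp1, a glutathione transferase, was apart too at 0.13 (SE 0.073), and Gsta4, another, differed by 0.27 (SE 0.21) with overlap. Gclc, the catalytic subunit that starts glutathione synthesis, was apart in the other direction at -0.094 (SE 0.091); it is named for the lack of overlap, after its values were seen.

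In a list of general stress genes 7 of 9 were lower, with a median of -0.090, against 0.0070 over all tested probe sets. Whether Nrf2 controls these genes was not tested here. Ddit3, a factor of the endoplasmic reticulum stress response, read 641, 647 and 785 in NonTG and 612, 448 and 613 in hSOD1G93A, a difference of -0.32 (SE 0.15) with no overlap. Atf4, its upstream activator, differed by -0.20 (SE 0.12) and Trib3, a pseudokinase induced with them, by -0.52 (SE 0.34). The Trib3 difference was set mostly by letter C (-1.67, against 0.33 within A and -0.22 within B). Its signal on hSOD1G93A C was 68.2, close to the filter of 66.7. Atf4 and Trib3 were higher within A and lower within B and C, as Hmox1 was, and so were Atf3 and Hspa1a, named after their values were seen. Over all 6 lists 20 of 76 genes (26.3%), each read by its brightest probe set, had this order, against 15.4% of all tested probe sets. The order was singled out on these same arrays, so this share is a description and not a test of it.

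**Figure D4:**
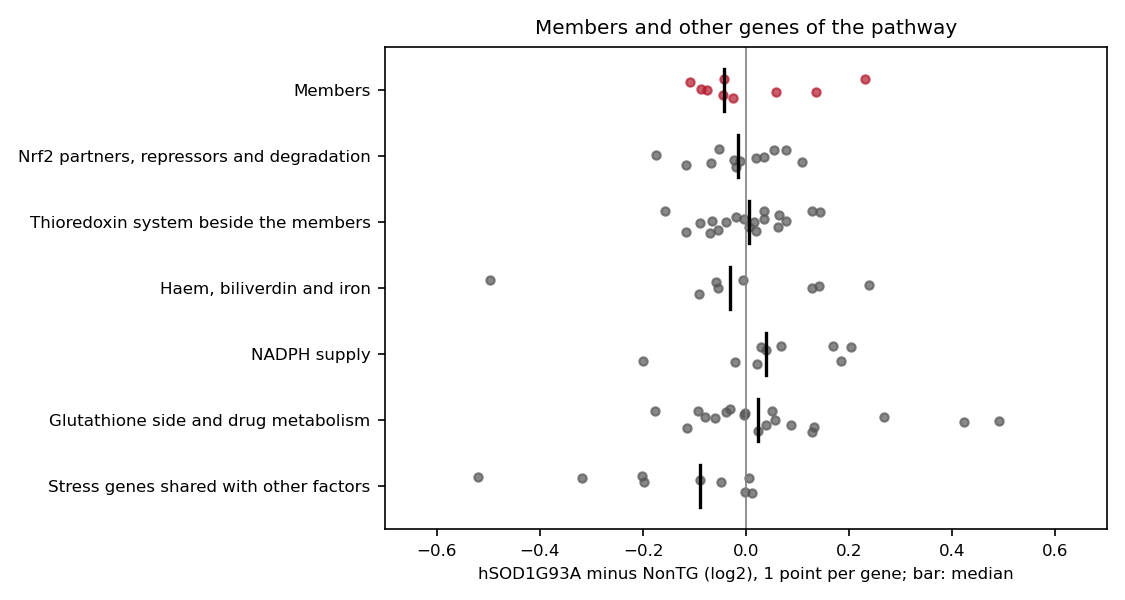
Difference between hSOD1G93A and NonTG (log2, horizontal axis) for the 9 genes (red) and for the 76 genes of the other lists (grey), 1 point per gene with a bar at each list's median. The medians lie between -0.090 for the stress genes and 0.038 for NADPH supply, and no gene passed the test.

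Likeness over the 6 arrays was taken as Pearson's r between log2 signals of the brightest probe sets. Among the 9 genes, Hmox1 was most like Me1 (r = 0.85) and Srxn1 most like Hmox1 (r = 0.82), while Nfe2l2 was most like Nqo1 (r = 0.81). The order depended on the measure: with the group means removed, Hmox1 was most like Blvrb (r = 0.87, against 0.66 with them) and next like Me1 (r = 0.86). Nfe2l2 ran against the brightest Txnrd1 probe set, 1398791_at (r = -0.80). The Txnrd1 probe sets followed each other only weakly over the arrays (r = 0.33), so this value is not one for the gene. Among all tested genes, those most like Nfe2l2 were Mtmr6, Kpna1 and Pinlyp (r = 0.9968, 0.9947 and 0.9886). With 6 arrays that share letters and scaling, such values are a description of these arrays.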

How the data were processed

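For every array the authors deposited linear probe-set intensities. The tools named for them are MAS5 and GCOS 1.4, per the submitters' processing notes. GC-RMA and logged values, which the series' design text names, were not what the table held: its intensities were linear, with means between 500.16 and 500.172 after trimming 2% at each end. MAS5 subtracts mismatch from perfect-match signal, so dim values are noisy. Of 31099 rows 57 controls were left out, as were rows at or below the 40th percentile of the mean log2 value.

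The group comparison ran in limma 3.58.1 (R 4.3.3, lmFit, eBayes with trend, two-sided, 6 arrays, no pseudocount). The fit was also run on simulated data with independent noise and no letter effect. The planted changes were larger than any group difference of the tested probe sets described here, so that run does not show the power for such differences. An exact permutation test of 3 against 3 cannot give a p below 0.1. The small number of arrays limits the precision. Of the rows 20826 had 1 gene symbol, 436 several and 9780 none. Gene lists, alternatives and the rule for names (all members, the 3 smallest p per list, the genes most like Nfe2l2) were chosen with earlier results of these data known. Deviations from the group means correlated between same-letter arrays (0.30, 0.25 and 0.20 for A, B and C, against -0.28 to 0.025 otherwise), so the letters were treated as pairs in one alternative. The deviations of a group cancel out, so positive same-letter values bring negative ones otherwise, and the latter range is not a separate contrast. Other alternatives changed the filter, a pseudocount of 32, the normalization, the trend, array weights, the probe sets of a gene and the arrays included. The test of the letters was added later.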

Additional observations from a re-analysis of the deposited data

How the results depend on the processing

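Limma called 0 probe sets, of these genes or of any other, under all 14 alternatives that give a call: no filter, a filter at the 60th percentile, a pseudocount, quantile normalization, subtraction of array medians, no trend, array weights, the letter as a replicate block (paired fit), and each array left out. At an unadjusted p of 0.05 the count over all was 474, and 1090 with the block; the median difference of the 9 genes was -0.042 in both, and the block changed no call. Leaving out 1 array moved that median from -0.059 to 0.16, the highest without hSOD1G93A B, and it was 0.094 without NonTG C. It moved the difference of Hmox1 from -0.29 to 0.25, of Srxn1 from -0.35 to 0.16, of Nqo1 from -0.17 to 0.094 and of Me1 from -0.070 to 0.19, so these have no settled direction. With array weights Hmox1 stood at 0.0083. Nfe2l2, Keap1, Blvrb, Txn1 and Txnrd1 kept their sign under every alternative, most of which used the same brightest probe set. This does not settle a direction. Keap1 stood at -0.0028 without hSOD1G93A A, and its other probe set was at 0.035 in the main fit. The second Txnrd1 probe set was at 0.00070 there. In limma the lowest adjusted p of any of the 9 genes was 0.804, for Srxn1 without hSOD1G93A A. The cause of these shifts was not tested. The precision is limited by 3 arrays per group and is lower for dim probe sets.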
